A study of Mus musculus with 12 samples.

Results

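Collagen chains are the polypeptides that wind around one another into the helical rods of collagen fibrils, networks and filaments in the extracellular matrix. The 44 genes described here are all rows of the 2 deposited count tables whose symbol is Col, a number, the letter a and a number. The table of mCKO and CTR1 held 41 of them among 17260 genes, and the table of iCKO and CTR2 held 44 among 17325. By class, 11 encode fibrillar chains, 6 basement membrane chains, 9 fibril-associated (FACIT) chains and 18 other chains. The rule used symbols only and no measured value.

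The study deleted the gene of the RNA helicase DDX5 in cardiomyocytes and read mRNA of the left ventricle of male mice, in 4 groups of 3 libraries each. The mCKO group was DDX5fl/fl with MYH6Cre, a Cre recombinase driven by a cardiomyocyte promoter, sampled at 8 weeks without treatment. CTR1 consisted of Ddx5 fl/fl mice without Cre, of the same age. The iCKO group was Ddx5 fl/fl with Myh6MerCreMer, a Cre that tamoxifen activates. Those mice received tamoxifen intraperitoneally at 20 mg/kg/day for 5 days, and the design text gives collection after 7 days of injection. CTR2 consisted of age-matched Ddx5 fl/fl mice without Cre that received the same tamoxifen, so tamoxifen alone is shared by iCKO and CTR2. For iCKO and CTR2 no age in weeks is labelled. Cre was absent from both control groups, and an effect of Cre or MerCreMer cannot be told apart from that of losing Ddx5. The labels do not say that replicates were separate animals, and p-values measure the spread between these libraries, which may be technical.

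Library totals lay between 19682268 and 25871882 counts. Ddx5 itself stood at 232, 230 and 215 CPM in mCKO, against 634, 634 and 397 CPM in CTR1, and at 214, 217 and 195 CPM in iCKO, against 569, 705 and 607 CPM in CTR2. CPM here are counts scaled to a common library size by the trimmed mean of M-values (TMM). Replicate 3 stood apart in both mCKO and CTR1. Across 13353 genes the deviations of same-numbered mCKO and CTR1 libraries from their group means correlated at 0.464, 0.532 and 0.823, and those of replicate 3 with the other numbers at -0.623 to -0.680. Over the collagen chains tested, the median log2 deviation of replicate 3 was 0.204 in mCKO and 0.219 in CTR1. For this reason mCKO fold changes are given with the replicate number as a blocking term, and those of chains that passed with it also without it. In CTR2, replicate 2 was low for many chains, with a median log2 deviation of -0.410.

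In heart muscle, fibroblasts of the interstitium are the main source of fibrillar collagen, whereas endothelial and mural cells also lay down basement membranes around vessels. Fibrillar chains assemble into the cable-like fibrils that carry tension. Basement membrane chains of type IV form sheets around muscle fibres and vessels, FACIT chains decorate the surface of fibrils, and the remaining types form filaments, short-chain networks or membrane-anchored proteins. Fibrillar collagen accumulates in cardiac fibrosis. In bulk tissue, fewer cells of a type and less RNA per cell cannot be told apart.

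Upstream sequence was available from RefSeq (GRCm38.p6) for 35 of the 44 genes. The 250 bases before the start site are shown for 3 chains that were higher in iCKO, among them the type I and type III chains Col1a2 and Col3a1, to set the genes beside one another on their own strand. Capitals mark CCAAT or ATTGG, then GGGCGG or CCGCCC, and also TATAAA.
Col1a2 (chr6:4505368-4505617, plus strand): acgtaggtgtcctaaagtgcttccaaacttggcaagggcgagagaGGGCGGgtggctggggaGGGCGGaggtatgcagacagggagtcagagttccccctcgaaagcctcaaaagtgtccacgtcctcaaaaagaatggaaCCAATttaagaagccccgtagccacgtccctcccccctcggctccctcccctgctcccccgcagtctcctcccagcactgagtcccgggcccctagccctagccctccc
Col3a1 (chr1:45311288-45311537, plus strand): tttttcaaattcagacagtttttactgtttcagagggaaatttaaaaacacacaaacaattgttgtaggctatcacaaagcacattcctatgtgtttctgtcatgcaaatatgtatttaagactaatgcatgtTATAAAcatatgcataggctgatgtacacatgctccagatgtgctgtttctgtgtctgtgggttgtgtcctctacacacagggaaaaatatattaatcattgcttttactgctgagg
Col8a1 (chr16:57754738-57754987, minus strand): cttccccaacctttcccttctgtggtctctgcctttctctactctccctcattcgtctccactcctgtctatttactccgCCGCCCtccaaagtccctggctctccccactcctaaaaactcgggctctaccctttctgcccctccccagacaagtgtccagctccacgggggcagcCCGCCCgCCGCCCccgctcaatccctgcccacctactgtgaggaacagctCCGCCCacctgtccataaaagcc
The Col1a2 stretch held 1 CCAAT and 2 GGGCGG matches, that of Col3a1 held 1 TATAAA and no other match, and that of Col8a1 held 4 CCGCCC matches. In windows from 250 bases before to 50 after the start, searched on the gene's strand for TATAAA and on both strands for the others, the motif CCAAT or ATTGG occurred in 37.1% of the 35 collagen genes and in 41.1% of 27025 genes. GGGCGG or CCGCCC occurred in 62.9% of the collagen genes and 38.2% of all genes, and TATAAA in 14.3% and 9.77%. Letters in a window are a description and not a binding site.

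Collagen mRNA made up a larger part of the iCKO libraries. All chains together took 0.647, 1.002 and 0.761% of the counts in iCKO, against 0.168, 0.139 and 0.147% in CTR2, and every iCKO library lay above every CTR2 library. In mCKO the same share was 0.229, 0.227 and 0.341%, against 0.173, 0.182 and 0.273% in CTR1, and these groups overlapped. Of 32 chains tested in iCKO against CTR2, 18 rose and 4 fell in the edgeR quasi-likelihood fit at an adjusted p under 0.05 over all genes. The shares over all 13548 genes tested were 25.2% higher and 19.5% lower. The median log2 fold change was 1.24 over the chains and 0.03 over all genes. With library sizes in place of TMM, 19 chains rose and 2 fell, where 33.9% of all genes were higher and 13.5% lower. That scaling moved the median of all genes to 0.24 and that of the chains to 1.45, and 71.5% of all calls were then in the higher direction, against 56.4% with TMM. In mCKO against CTR1, none of 34 chains tested passed without the replicate number, where 0% of all 13353 genes passed in either direction. In that fit 7 chains had an unadjusted p under 0.05. DESeq2 called 0 chains, although it called 176 of the 13353 genes higher and 134 lower. With limma-voom 0 chains and 0 genes were called.

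With the replicate number as a block, 13 of the 34 chains rose in mCKO and 0 fell, where 7.32% of all genes were called higher and 6.45% lower. The 13 were Col1a1, Col1a2, Col3a1, Col5a1, Col5a2, Col6a1, Col6a2, Col6a3, Col14a1, Col15a1, Col16a1, Col18a1 and Col22a1. Their fitted log2 fold changes were between 0.28 and 1.48, and the median over all 34 tested was 0.29, against 0.00 over all genes. Without both replicate 3 libraries and without the block, 9 of 33 chains tested rose, where 3.85% of all genes did, and Col1a2, Col6a2, Col16a1 and Col18a1 no longer passed. With library sizes in place of TMM and the block, 16 chains rose and 0 fell, 11.8% of all genes were higher, and 76.9% of all calls were in the higher direction, against 53.2% with TMM. Of the 13 chains higher in mCKO with the block, 12 were also among the 18 higher in iCKO, which is 92.3% of the first list and 66.7% of the second. The exception was Col22a1, whose counts in CTR1 were low, at 7, 10 and 12. Over all 13121 genes tested in both experiments, 58.3% of those higher in mCKO with the block were also higher in iCKO, and 17.8% of those higher in iCKO were also higher in mCKO. The 2 experiments shared no libraries.

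**Figure D1:**
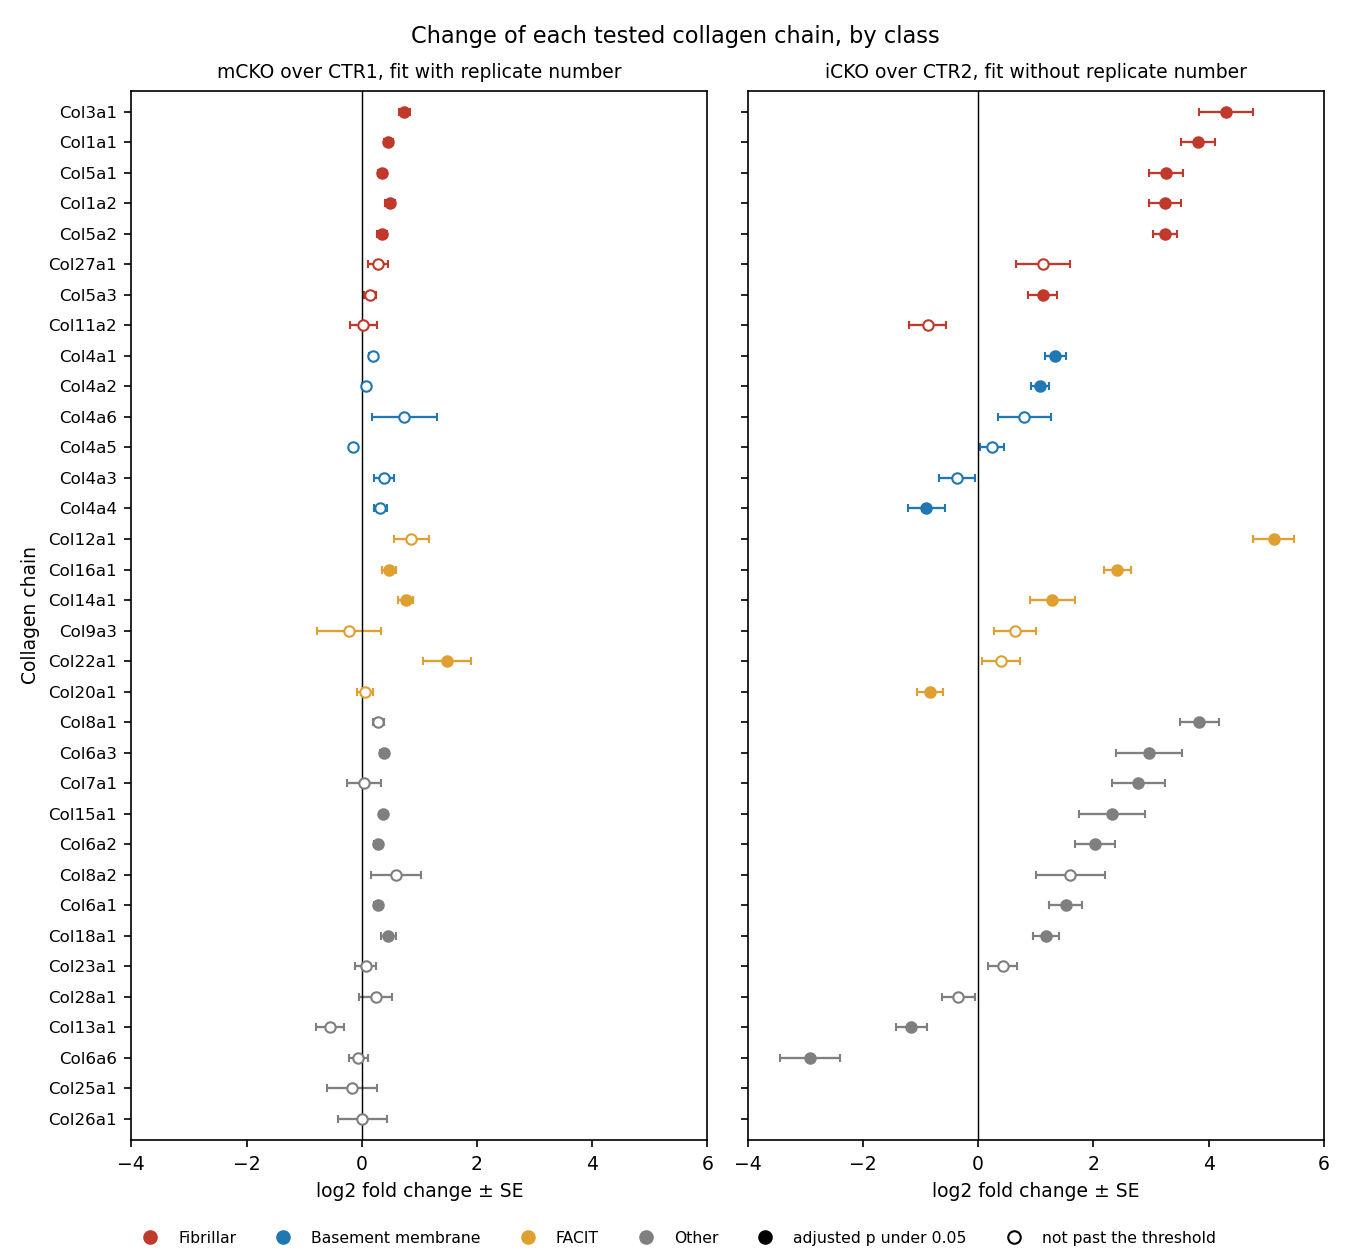
Log2 fold change with its standard error for each chain tested in either experiment, grouped by class, with mCKO over CTR1 from the fit with the replicate number on the left and iCKO over CTR2 on the right. Filled points had an adjusted p under 0.05, which was the case for 13 chains in mCKO and 22 in iCKO, and all filled points in mCKO lie between 0 and 2.

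Fibrillar chains rose most as a class in iCKO. Their summed level was 3002, 5089 and 3736 CPM in iCKO, against 428, 218 and 325 CPM in CTR2, a 12.2-fold difference of means with no overlap. In mCKO the sum was 710.1, 596 and 909.8 CPM, against 430.5, 456 and 684 CPM in CTR1, and the groups overlapped. Of 8 fibrillar chains tested in iCKO, 6 rose and 0 fell, where 25.2% of all genes were higher and 19.5% lower. Their median log2 fold change was 3.25. In mCKO with the block, 5 of 8 rose, where 7.32% of all genes did. Without the block 0 rose, where 0% of all genes did.

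Col3a1, the chain of type III collagen that forms thin, compliant fibrils, had 1200, 1995 and 1492 CPM in the iCKO libraries, against 128, 35.5 and 75.2 CPM in CTR2. It rose by a log2 fold change of 4.31 ± 0.47, adjusted p = 0.00028. The CTR2 libraries were spread widely, with replicate 2 lowest, and the iCKO libraries were all far above them. Col3a1 had 266, 215 and 336 CPM in the mCKO libraries, against 125, 148 and 224 CPM in CTR1, where mCKO replicate 2 lay below CTR1 replicate 3. With the block its log2 fold change was 0.74 ± 0.10, adjusted p = 0.0037, and without it 0.73 ± 0.26, adjusted p = 0.5.

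Col1a1, 1 of the 2 chains of type I collagen, the main tension-bearing fibril of the ventricle, stood at 695, 1265 and 879 CPM in the iCKO libraries, against 87.5, 53.8 and 62.5 CPM in CTR2. The log2 fold change was 3.82 ± 0.29, adjusted p = 8.4e-05. Its partner Col1a2 had 562, 1001 and 733 CPM in the iCKO libraries, against 98.3, 60.8 and 85.2 CPM in CTR2, with a log2 fold change of 3.25 ± 0.28, adjusted p = 0.00011. For both chains the lowest iCKO library was several times the highest CTR2 library. Col1a1 had 124, 102 and 196 CPM in the mCKO libraries, against 75.6, 81.2 and 158 CPM in CTR1, and Col1a2 had 159.8, 120.3 and 189 CPM in the mCKO libraries, against 92.6, 97.5 and 149 CPM in CTR1. For both, replicate 3 was the highest library of its group and the groups overlapped. With the block, the log2 fold change was 0.46 ± 0.08, adjusted p = 0.0057, for Col1a1 (without it 0.43 ± 0.36, adjusted p = 0.88) and 0.49 ± 0.09, adjusted p = 0.0093, for Col1a2 (without it 0.48 ± 0.24, adjusted p = 0.68).

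Type V collagen lies inside type I fibrils and sets their diameter. Its chain Col5a1 was at 254, 401 and 268 CPM in the iCKO libraries, against 39.9, 21.5 and 36.2 CPM in CTR2, a log2 fold change of 3.26 ± 0.29, adjusted p = 0.00013. Col5a2 was at 233, 361 and 305 CPM in the iCKO libraries, against 36.7, 28.1 and 31.04 CPM in CTR2, with a log2 fold change of 3.25 ± 0.21, adjusted p = 5.8e-05. All iCKO libraries exceeded all CTR2 libraries for both. The rarer chain Col5a3 moved less, at 49.2, 54.4 and 51.2 CPM in the iCKO libraries, against 30.3, 14.9 and 26.9 CPM in CTR2, with a log2 fold change of 1.12 ± 0.25, adjusted p = 0.0068. Col5a1 had 67.1, 61.6 and 79.4 CPM in the mCKO libraries, against 49.9, 52.6 and 62.1 CPM in CTR1, and the log2 fold change with the block was 0.35 ± 0.07, adjusted p = 0.0074 (without it 0.35 ± 0.14, adjusted p = 0.55). Col5a2 had 45.7, 43.96 and 65.8 CPM in the mCKO libraries, against 35.99, 30.2 and 59.1 CPM in CTR1, with a log2 fold change of 0.35 ± 0.08, adjusted p = 0.016, with the block (without it 0.32 ± 0.29, adjusted p = 0.89). Col5a3 did not pass there (log2 fold change 0.14 ± 0.10, adjusted p = 0.41), at 38.3, 41.5 and 38.1 CPM in the mCKO libraries, against 42.03, 37.7 and 29.2 CPM in CTR1.

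The remaining fibrillar chains, known mainly from cartilage and bone, were low. Col27a1 averaged 6.62 ± 1.81 CPM in iCKO, against 3.09 ± 1.82 CPM in CTR2 (SD, n = 3 each), a log2 fold change of 1.13 ± 0.47, adjusted p = 0.083. Col11a2 had 1.44, 2.55 and 1.32 CPM in the iCKO libraries, against 3.304, 2.81 and 3.78 CPM in CTR2, with iCKO below CTR2 in every library but a log2 fold change of -0.87 ± 0.32, adjusted p = 0.056. Col11a1, Col2a1 and Col24a1 did not reach the filter on low counts in either experiment. In iCKO against CTR2 their counts summed over 3 libraries were 59 against 5 for Col11a1, 43 against 6 for Col2a1 and 5 against 4 for Col24a1. With no filter on low counts, Col11a1 had a log2 fold change of 3.01 ± 0.87, adjusted p = 0.02, and Col2a1 2.34 ± 0.80, adjusted p = 0.043. Values near the detection limit carry wide counting error.

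**Figure D2:**
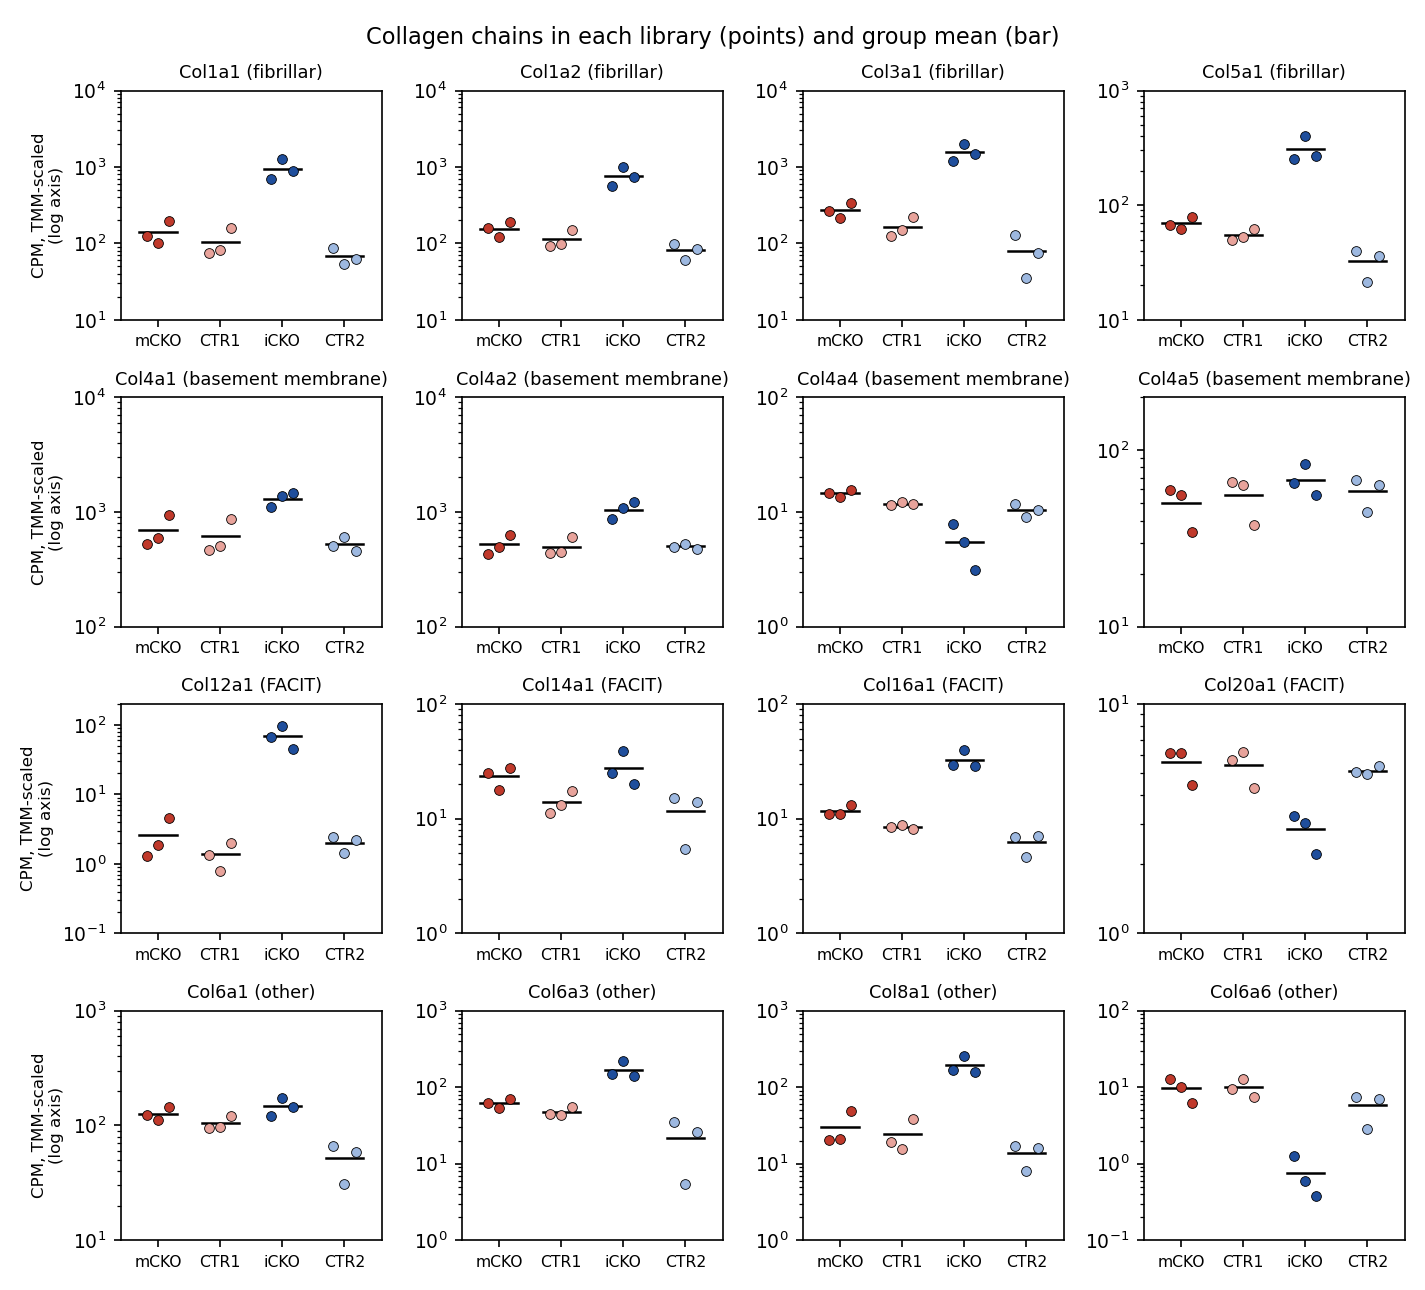
Level of 16 chains in each library, as TMM-scaled CPM on a log axis, with groups in the order mCKO, CTR1, iCKO and CTR2 and a bar at each group mean. The iCKO points of Col1a1, Col1a2, Col3a1, Col5a1, Col4a1, Col4a2, Col12a1, Col16a1, Col6a3 and Col8a1 sit above all other points. Those of Col6a6, Col20a1 and Col4a4 sit below all others, and those of Col14a1 and Col6a1 overlap the mCKO points. Of the iCKO points of Col4a5, 1 lies above all others and the rest lie among them.

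Basement membrane chains were the most abundant class in the controls and changed less. Their summed level was 2035, 2532 and 2746 CPM in iCKO, against 1087, 1194 and 1011 CPM in CTR2, a 2.22-fold difference without overlap. It was 1042, 1174 and 1636 CPM in mCKO, against 988, 1035 and 1529 CPM in CTR1, where groups overlapped. Of the 6 chains, all tested, 2 rose and 1 fell in iCKO, near the shares over all genes (25.2% higher and 19.5% lower). With TMM, 0 passed in mCKO with or without the block. With library sizes and the block, Col4a1 and Col4a4 were higher in the edgeR fit (adjusted p = 0.014 and 0.032), where 11.8% of all genes were.

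Col4a1 and Col4a2 make the type IV network found in nearly all basement membranes. Their genes lie head to head on chromosome 8 of GRCm38, Col4a1 on the minus strand at 11198423-11312889 and Col4a2 on the plus strand at 11312805-11449287, so that the annotated ends overlap by 85 bases and 22 exonic bases are shared. Col4a1 had 1094, 1365 and 1469 CPM in the iCKO libraries, against 503, 606 and 457 CPM in CTR2, a log2 fold change of 1.34 ± 0.18, adjusted p = 0.00062. Col4a2 had 861, 1072 and 1215 CPM in the iCKO libraries, against 498, 529 and 475 CPM in CTR2, a log2 fold change of 1.08 ± 0.16, adjusted p = 0.0012. CTR2 replicate 2, which was low for many other chains, was the highest CTR2 library for both. Col4a1 had 527, 598 and 947 CPM in the mCKO libraries, against 469, 504 and 864 CPM in CTR1, and Col4a2 had 432, 499.8 and 631 CPM in the mCKO libraries, against 437, 452 and 608 CPM in CTR1. Replicate 3 was highest in both groups, and with the block neither passed (log2 fold change 0.19 ± 0.06, adjusted p = 0.061, for Col4a1 and 0.07 ± 0.06, adjusted p = 0.52, for Col4a2).

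The chains Col4a3, Col4a4 and Col4a5 form a network best known from the kidney glomerulus, and Col4a6 pairs with Col4a5 around smooth muscle. Col4a4 fell in iCKO, with 7.84, 5.49 and 3.098 CPM in the iCKO libraries, against 11.6, 9.0 and 10.5 CPM in CTR2 and a log2 fold change of -0.90 ± 0.32, adjusted p = 0.048. That call was lost when any 1 CTR2 library or iCKO replicate 2 was left out, with library sizes only as scaling, and without replicate 2 of both groups (adjusted p up to 0.15). The constitutive model gave 14.7, 13.6 and 15.7 CPM in the mCKO libraries, against 11.4, 12.2 and 11.8 CPM in CTR1, above CTR1 in every library, with a log2 fold change of 0.32 ± 0.11, adjusted p = 0.069, with the block. Col4a3, which overlaps Col4a4 by 114 bases on the opposite strand of chromosome 1, averaged 3.27 ± 1.22 CPM in iCKO, against 4.28 ± 0.493 CPM in CTR2 (SD, n = 3 each) and did not pass. Col4a5, on the X chromosome, had 65.2, 83.98 and 55.5 CPM in the iCKO libraries, against 67.5, 44.9 and 63.4 CPM in CTR2, with a log2 fold change of 0.24 ± 0.21, adjusted p = 0.39, and the groups overlapped. Col4a5 had 59.9, 55.8 and 34.3 CPM in the mCKO libraries, against 66.4, 63.8 and 37.6 CPM in CTR1, with a log2 fold change of -0.15 ± 0.06, adjusted p = 0.15, with the block. Col4a6, whose gene starts 1274 bases from that of Col4a5, averaged 2.104 ± 0.8501 CPM in iCKO, against 1.23 ± 0.612 CPM in CTR2 (SD, n = 3 each) and did not pass.

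FACIT chains included Col12a1, which had the highest fold change of the chains tested in iCKO. Their summed level was 126, 181 and 98.4 CPM in iCKO, against 30.9, 18 and 30.8 CPM in CTR2, a 5.10-fold difference of means. Col12a1 alone averaged 69.5 CPM of a mean sum of 135 CPM in iCKO, against 2.02 of 26.6 CPM in CTR2. The median log2 fold change of the class in iCKO was 0.97. In mCKO the sum was 45.9, 39.4 and 51.1 CPM, against 27.9, 30.04 and 32.9 CPM in CTR1, and here too every knockout library lay above every control library. Of 6 FACIT chains tested, 3 rose and 1 fell in iCKO, where 25.2% of all genes were higher and 19.5% lower. The blocked mCKO fit had 3 higher and 0 lower, where 7.32% of all genes were higher and 6.45% lower.

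Col12a1, which binds type I fibrils in tissue under tension, had 66.3, 97.2 and 45.1 CPM in the iCKO libraries, against 2.44, 1.43 and 2.18 CPM in CTR2. This was a 35-fold difference in the fit (log2 fold change 5.13 ± 0.36, adjusted p = 6.2e-05), rank 70 from the top among 13548 genes. The constitutive model gave 1.31, 1.898 and 4.61 CPM in the mCKO libraries, against 1.36, 0.781 and 1.99 CPM in CTR1, with a log2 fold change of 0.86 ± 0.30, adjusted p = 0.079, for the block. Col16a1, found in fibrils and near cell surfaces, had 29.6, 39.98 and 28.8 CPM in the iCKO libraries, against 6.96, 4.62 and 7.1 CPM in CTR2, with a log2 fold change of 2.42 ± 0.23, adjusted p = 0.00016. The constitutive model gave 11.03, 10.9 and 13.2 CPM in the mCKO libraries, against 8.43, 8.902 and 8.11 CPM in CTR1, with a log2 fold change of 0.47 ± 0.12, adjusted p = 0.028, with the block (without it 0.47 ± 0.13, adjusted p = 0.35), and the groups did not overlap.

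Col14a1, which also coats type I fibrils, rose in iCKO and, with the block, in mCKO. It had 24.9, 38.8 and 20.1 CPM in the iCKO libraries, against 15.2, 5.43 and 14.1 CPM in CTR2, a log2 fold change of 1.29 ± 0.39, adjusted p = 0.027, and 24.8, 17.7 and 27.6 CPM in the mCKO libraries, against 11.2, 13.1 and 17.5 CPM in CTR1, a log2 fold change of 0.76 ± 0.13, adjusted p = 0.0048, with the block (without it 0.76 ± 0.23, adjusted p = 0.4). Neither pair of groups overlapped. CTR2 replicate 2 was lowest, and the iCKO call was lost without iCKO replicate 2 and without replicate 2 of both groups (adjusted p up to 0.096). Col20a1, a chain little studied in the heart, fell in iCKO, with 3.25, 3.04 and 2.23 CPM in the iCKO libraries, against 5.03, 4.95 and 5.39 CPM in CTR2 and a log2 fold change of -0.83 ± 0.23, adjusted p = 0.019. That call was lost without CTR2 replicate 1, without CTR2 replicate 3, without replicate 2 of both groups and with library sizes only (adjusted p up to 0.085). Col20a1 averaged 5.58 ± 0.984 CPM in mCKO, against 5.401 ± 0.976 CPM in CTR1 (SD, n = 3 each). Col22a1, a chain of muscle junctions with tendon, had 1.87, 1.499 and 0.747 CPM in the mCKO libraries, against 0.341, 0.521 and 0.556 CPM in CTR1, with a log2 fold change of 1.48 ± 0.41, adjusted p = 0.036, with the block (without it 1.53 ± 0.44, adjusted p = 0.36). Its counts were 43, 30 and 18 in mCKO. In CTR1 they were 7, 10 and 12, near the minimum count of 10 in the filter, so Col22a1 entered the test mainly through mCKO. The inducible model gave 1.41, 1.12 and 1.25 CPM in the iCKO libraries, against 0.712, 0.905 and 1.296 CPM in CTR2, with a log2 fold change of 0.39 ± 0.33, adjusted p = 0.37, and the groups overlapped. Col9a3 averaged 0.568 ± 0.00935 CPM in iCKO, against 0.365 ± 0.0619 CPM in CTR2 (SD, n = 3 each) and did not pass. Col9a1, Col9a2 and Col19a1 were not tested, with summed counts in iCKO against CTR2 of 1 against 0, 22 against 2, and 12 against 13.

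Among the other chains, those of type VI collagen and the vessel-wall chain Col8a1 carried most of the signal. The summed level of the class was 772, 1134 and 862 CPM in iCKO, against 274, 99.3 and 220.1 CPM in CTR2, a 4.66-fold difference of means without overlap. In mCKO it was 443, 418 and 610.2 CPM, against 346, 356 and 492 CPM in CTR1, with overlap. Of 12 tested, 7 rose and 2 fell in iCKO, where 25.2% of all genes were higher and 19.5% lower. The share that fell was near that over all genes. Of 14 tested, 5 rose and 0 fell in mCKO with the block, where 7.32% and 6.45% of all genes did.

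Type VI collagen forms beaded filaments next to cell surfaces from Col6a1, Col6a2 and either Col6a3 or a related long chain such as Col6a6. Col6a1 had 122, 175 and 145 CPM in the iCKO libraries, against 66.2, 30.9 and 58.1 CPM in CTR2, with a log2 fold change of 1.52 ± 0.28, adjusted p = 0.003. Col6a2 had 142, 207 and 214 CPM in the iCKO libraries, against 65.1, 24.8 and 49.2 CPM in CTR2, with a log2 fold change of 2.03 ± 0.34, adjusted p = 0.0019. Col6a3 had 149, 218 and 142 CPM in the iCKO libraries, against 34.6, 5.38 and 25.8 CPM in CTR2, with a log2 fold change of 2.97 ± 0.57, adjusted p = 0.0036. In all 3, CTR2 replicate 2 was the lowest library, and no iCKO library reached down to CTR2. The long chain Col6a6 went the other way, with 1.26, 0.594 and 0.378 CPM in the iCKO libraries, against 7.52, 2.81 and 6.996 CPM in CTR2. Its log2 fold change was -2.92 ± 0.52, adjusted p = 0.0026, rank 92 from the bottom among 13548 genes, and it fell in each of the 13 settings tried. The mCKO libraries gave 124, 112 and 144 CPM for Col6a1, against 95.6, 97.6 and 122 CPM in CTR1. For Col6a2 they gave 98.9, 98.2 and 154 CPM, against 78.8, 85.6 and 126 CPM in CTR1, and for Col6a3 61.5, 54.3 and 70.6 CPM, against 44.7, 42.7 and 55.4 CPM in CTR1. With the block these rose by 0.28 ± 0.06, adjusted p = 0.017 (without it 0.28 ± 0.15, adjusted p = 0.71), by 0.28 ± 0.06, adjusted p = 0.015 (without it 0.28 ± 0.25, adjusted p = 0.9), and by 0.39 ± 0.07, adjusted p = 0.0034 (without it 0.39 ± 0.15, adjusted p = 0.53), on the log2 scale. Col6a6 averaged 9.63 ± 3.23 CPM in mCKO, against 9.97 ± 2.68 CPM in CTR1 (SD, n = 3 each), and its log2 fold change with the block was -0.06 ± 0.16, adjusted p = 0.85. Col6a1 and Col6a2 lie 85161 bases apart on chromosome 10, and Col6a6 lies beside Col6a5 and Col6a4 on chromosome 9, with gaps of 27823 and 27854 bases. Col6a4 had 10 counts in iCKO and 0 in CTR2, and Col6a5 had 10 and 1, so neither was tested.

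Col8a1, a short chain of vascular and subendothelial matrix, had 169, 259 and 159.8 CPM in the iCKO libraries, against 17.2, 8.095 and 16.2 CPM in CTR2. Its log2 fold change was 3.84 ± 0.34, adjusted p = 0.00012. The constitutive model gave 20.2, 20.8 and 48.9 CPM in the mCKO libraries, against 18.99, 15.4 and 38.9 CPM in CTR1, with replicate 3 highest in both groups, and a log2 fold change of 0.29 ± 0.09, adjusted p = 0.05, with the block, not past the threshold. Its partner Col8a2 was under 2 CPM in every library. It did not pass in either experiment in the edgeR fits of all libraries with TMM. With library sizes only, Col8a2 was higher in iCKO (log2 fold change 1.82 ± 0.62, adjusted p = 0.04), where 33.9% of all genes were. The multiplexin chains Col15a1 and Col18a1 sit at the edge of basement membranes and release antiangiogenic fragments. Col15a1 had 154, 226 and 149.6 CPM in the iCKO libraries, against 58.6, 8.67 and 40.1 CPM in CTR2, with a log2 fold change of 2.32 ± 0.57, adjusted p = 0.011, where CTR2 replicate 2 was far below the other CTR2 libraries. Col18a1 had 22.9, 29.5 and 25.3 CPM in the iCKO libraries, against 14.3, 8.43 and 11.97 CPM in CTR2, with a log2 fold change of 1.18 ± 0.22, adjusted p = 0.003. Col15a1 had 102, 101 and 152 CPM in the mCKO libraries, against 80.9, 81.4 and 112 CPM in CTR1, with a log2 fold change of 0.37 ± 0.06, adjusted p = 0.0037, with the block (without it 0.38 ± 0.22, adjusted p = 0.74). Col18a1 had 13.1, 11.2 and 25.02 CPM in the mCKO libraries, against 7.11, 9.63 and 20.3 CPM in CTR1, with a log2 fold change of 0.46 ± 0.13, adjusted p = 0.04, with the block (without it 0.42 ± 0.47, adjusted p = 0.94), with replicate 3 highest in both groups.

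Col7a1, which makes the anchoring fibrils beneath epithelia, had 4.84, 10.3 and 16.9 CPM in the iCKO libraries, against 1.63, 1.05 and 2.02 CPM in CTR2, with a log2 fold change of 2.78 ± 0.46, adjusted p = 0.0019. The constitutive model gave 2.22, 2.05 and 0.166 CPM in the mCKO libraries, against 1.95, 2.08 and 0.232 CPM in CTR1, and replicate 3 was lowest in both groups. Col13a1, a transmembrane chain of the neuromuscular junction, fell in iCKO, with 1.37, 1.43 and 2.27 CPM in the iCKO libraries, against 3.76, 4.0 and 3.73 CPM in CTR2 and a log2 fold change of -1.16 ± 0.27, adjusted p = 0.0088. Without replicate 2 of both groups its adjusted p was 0.086. The constitutive model gave 1.61, 1.499 and 1.66 CPM in the mCKO libraries, against 1.899, 2.65 and 2.55 CPM in CTR1, all below CTR1, with a log2 fold change of -0.55 ± 0.24, adjusted p = 0.15, with the block. Col23a1 and Col28a1 were between 1 and 5 CPM in every library and did not pass in either experiment. Col10a1, Col17a1, Col25a1 and Col26a1 were not tested in iCKO, with summed counts in iCKO against CTR2 of 0 against 1, 29 against 1, 10 against 17, and 22 against 15. Without the filter on low counts, all 44 chains entered, and 22 were higher and 4 lower in iCKO, where 20.3% and 15.6% of 17325 genes were. A chain that passes the filter through high counts in 1 group only had to differ, so the count over chains that passed carries that selection.

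The 2 knockouts were set against each other by the contrast of the mCKO effect minus the iCKO effect, fitted over all 12 libraries and given on the log2 scale. Of 35 chains tested, 13 were lower in this contrast and 2 were higher, where 9.88% and 11.0% of all 13871 genes were. Lower ones, whose change in mCKO lay below that in iCKO, were Col12a1 (-4.17 ± 0.67, adjusted p = 0.0015), Col3a1, Col8a1, Col1a1, Col5a2, Col5a1, Col1a2, Col6a3, Col16a1, Col6a2, Col6a1, Col4a2 and Col5a3. The higher ones were Col6a6 (2.92 ± 0.63, adjusted p = 0.0076) and Col4a4 (1.26 ± 0.35, adjusted p = 0.025). Col14a1 did not pass (-0.49 ± 0.50, adjusted p = 0.51). With the replicate number in the fit 16 were lower and 3 higher, where 13.3% and 14.8% of all genes were. With library sizes only, 14 chains were lower and 1 higher, and 34.0% of all calls were in the higher direction, against 52.6% with TMM. Leaving out mCKO replicate 1 lost Col4a2, Col4a4, Col5a3, Col6a1 and Col6a2. Leaving out mCKO replicate 2 lost Col4a4, Col5a3 and Col6a1, and leaving out iCKO replicate 2 lost the same 3. The calls of Col4a4 and Col5a3 were also lost with several other single libraries left out. Tamoxifen and the Cre line also differed between the experiments. Age may have differed too, as mCKO and CTR1 were 8 weeks old and no age is labelled for iCKO and CTR2. None of these can be told apart from the timing of the deletion.

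The make-up of collagen mRNA was set out per kilobase of exon, over all annotated exons of a gene, to allow for chain length. Fibrillar chains made up 45.0, 51.6 and 44.4% of the summed CPM per kb in iCKO, against 19.3, 11.7 and 16.6% in CTR2. The basement membrane share was 38.6, 32.4 and 41.5% in iCKO, against 62.0, 79.4 and 65.7% in CTR2. Neither share overlapped between these groups. In mCKO the fibrillar share was 26.0, 21.9 and 23.5%, against 19.6, 19.8 and 20.6% in CTR1. The basement membrane share was 48.9, 54.8 and 53.2% in mCKO, against 56.7, 56.9 and 57.7% in CTR1. Between mCKO and CTR1 these shares did not overlap either, and no share was tested. FACIT chains stayed at or under 2.27% in every library. On this scale Col4a1 was the most abundant chain in iCKO, with 175 CPM per kb, followed by Col3a1 with 159.1 and Col4a2 with 158.6. Col3a1 was sixth in CTR2, at 8.10 CPM per kb, and Col4a2 was the most abundant there, at 75.6. The order of chains depends on the lengths used. In CPM, Col3a1 averaged 1562 in iCKO, above Col4a1 with 1309 and Col4a2 with 1050. In CTR2, Col4a1 averaged 522 CPM and Col4a2 501 CPM.

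**Figure D3:**
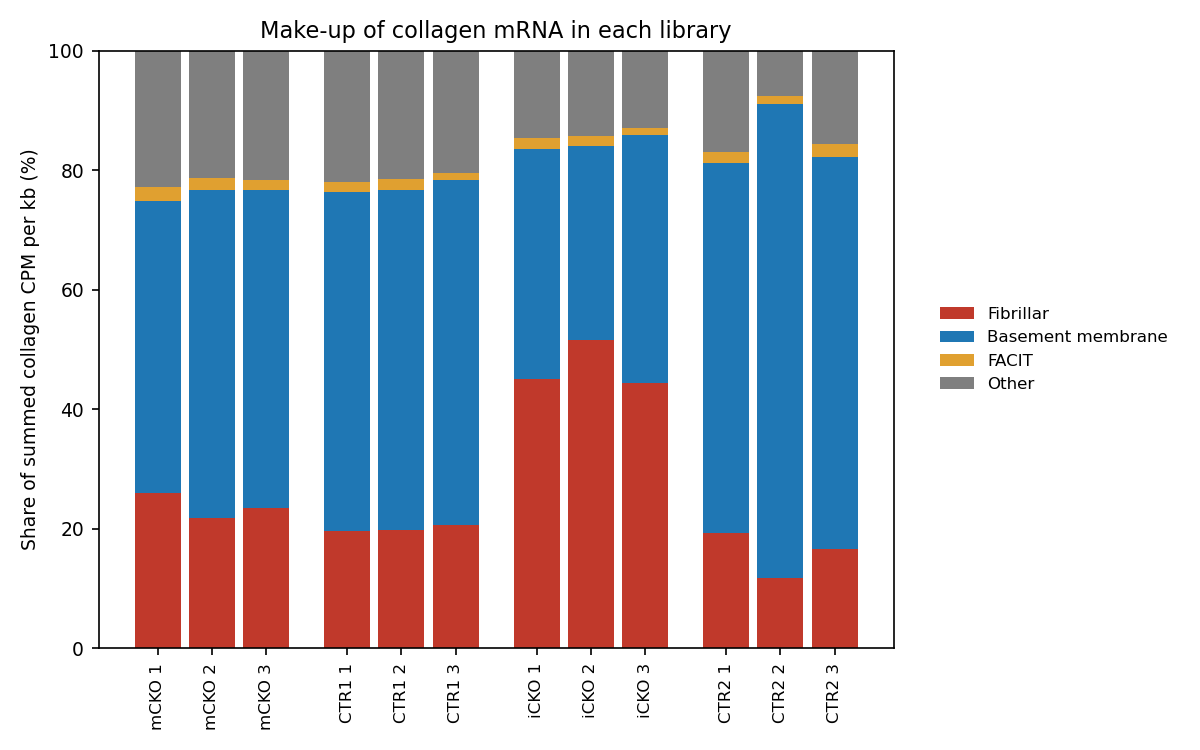
Share of the summed collagen CPM per kb taken by each class in each library, in percent, with mCKO, CTR1, iCKO and CTR2 from left to right. The fibrillar share reaches 44.4 to 51.6% in iCKO and stays at or under 26.0% in all other libraries.

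Ratios between chains of 1 protein or of the same fibril do not depend on library scaling. The ratio of Col1a1 to Col1a2, per kilobase, was 2.34, 2.39 and 2.27 in iCKO, against 1.68, 1.67 and 1.39 in CTR2. Its size depends on the exon lengths used, 6563 bases for Col1a1 and 12426 for Col1a2, over all annotated exons. In CPM, Col1a1 was at 695, 1265 and 879 in iCKO, above Col1a2 at 562, 1001 and 733. In CTR2 Col1a1 was at 87.5, 53.8 and 62.55 CPM, below Col1a2 at 98.3, 60.8 and 85.15. The ratio is of mRNA and does not measure chains in the protein. In mCKO the ratio per kilobase was 1.47, 1.61 and 1.96, against 1.55, 1.58 and 2.01 in CTR1. The ratio of Col1a1 to Col3a1 was 0.867, 0.949 and 0.881 in iCKO, against 1.02, 2.26 and 1.25 in CTR2. For Col4a1 to Col4a2 it was 1.13, 1.13 and 1.07 in iCKO, against 0.896, 1.02 and 0.854 in CTR2. Col6a1 to Col6a2 stood at 1.63, 1.61 and 1.29 in iCKO, against 1.94, 2.38 and 2.25 in CTR2. In these 4 ratios iCKO and CTR2 did not overlap, and each had a two-sided exact permutation p of 0.1, the smallest that 3 against 3 allows, and 0.25 after adjustment over the 10 ratios tested. Col5a1 to Col5a2 averaged 1.16 ± 0.15 in iCKO, against 1.14 ± 0.24 in CTR2 (SD, n = 3 each), with an exact permutation p of 0.8. In mCKO against CTR1 the exact permutation p of the 5 ratios lay between 0.2 and 1.

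**Figure D4:**
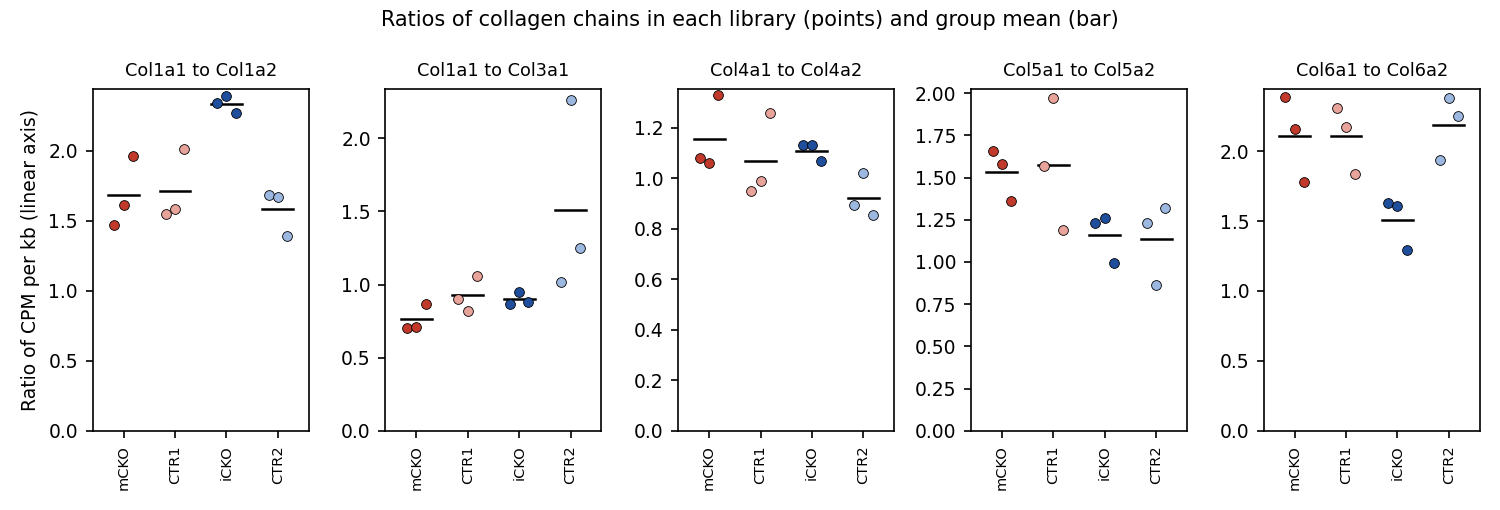
Ratio of CPM per kb for 5 pairs of chains in each library, on linear axes from 0, with a bar at each group mean and groups in the order mCKO, CTR1, iCKO and CTR2. The iCKO points of Col1a1 to Col1a2 lie at 2.27 to 2.39, above all other points, and those of Col6a1 to Col6a2 at 1.29 to 1.63, below all others.

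Genes that process collagen were followed as lists, each chosen with earlier results of these data known. Over all genes, iCKO had 25.2% higher and 19.5% lower, and the blocked mCKO fit had 7.32% higher and 6.45% lower. In the edgeR fit without the block, with the filter on low counts, no gene passed in mCKO. In the biosynthesis list, of enzymes and chaperones that modify and fold chains in the endoplasmic reticulum, 12 of 19 rose and 1 fell in iCKO, and in mCKO with the block 4 of 18 rose and 2 fell. Creb3l1, a transcription factor that drives collagen secretion, averaged 32.2 ± 4.4 CPM in iCKO, against 5.69 ± 0.433 CPM in CTR2 (SD, n = 3 each). P4ha3, a prolyl hydroxylase subunit, averaged 3.42 ± 1.02 CPM in iCKO, against 0.06703 ± 0.0301 CPM in CTR2, where it was under the detection limit. It could pass the filter on low counts only through iCKO and so had to differ. Fkbp10, a prolyl isomerase for type I collagen, rose in iCKO (log2 fold change 1.48 ± 0.18, adjusted p = 0.0004) and fell in mCKO with the block (-0.48 ± 0.07, adjusted p = 0.0023). The median log2 fold change of the list was 1.01 in iCKO and 0.09 in mCKO.

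For extracellular maturation, by propeptide proteinases and cross-linking lysyl oxidases, 8 of 12 rose and 1 fell in iCKO, and 5 rose and 0 fell in mCKO with the block. Loxl2 averaged 111 ± 26.2 CPM in iCKO, against 8.97 ± 3.13 CPM in CTR2. Loxl1 averaged 168 ± 25.4 CPM, against 30.3 ± 7.1 CPM. Both are lysyl oxidases. Pcolce, which speeds up removal of the fibrillar propeptide, averaged 96 ± 21.6 CPM in mCKO, against 55.99 ± 8.98 CPM in CTR1, a log2 fold change of 0.78 ± 0.08, adjusted p = 0.00037. Among 9 fibril-associated proteoglycans tested, 2 rose and 2 fell in iCKO, shares near those over all genes. Bgn (biglycan) averaged 798 ± 142 CPM in iCKO, against 162 ± 27.7 CPM in CTR2, whereas Dcn (decorin) averaged 385 ± 18.9 CPM, against 606 ± 32.3 CPM. In mCKO with the block 2 rose, Bgn and Fmod, and 0 fell.

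Collagen receptors had 5 of 11 higher and 1 lower in iCKO, and 3 higher in mCKO with the block. The receptor kinase Ddr1 averaged 178 ± 28.5 CPM in iCKO, against 41.6 ± 5.03 CPM in CTR2, and 60.8 ± 5.01 CPM in mCKO, against 39.3 ± 0.955 CPM in CTR1. Of 10 breakdown genes, 4 rose and 1 fell in iCKO, and 3 of 9 rose in mCKO with the block. The collagenase inhibitor Timp1 averaged 301 ± 94.9 CPM in iCKO, against 2.65 ± 0.17 CPM in CTR2. Of the gelatinases, Mmp9 rose, at 7.56 ± 2.69 CPM in iCKO, against 2.18 ± 0.325 CPM in CTR2. Mmp2 fell, at 28.8 ± 3.72 CPM in iCKO, against 47.9 ± 2.18 CPM in CTR2. In the list of TGF-beta, the main inducer of fibrillar collagen, and its immediate targets, 6 of 9 rose and 1 fell in iCKO, and 1 rose in mCKO with the block. Tgfb2 averaged 99.5 ± 11.7 CPM in iCKO, against 7.79 ± 1.36 CPM in CTR2. Of 11 basement membrane partners, 4 rose and 2 fell in iCKO. Sparc, a collagen chaperone outside the cell, averaged 1210 ± 185 CPM, against 239.6 ± 19.2 CPM in CTR2, and the laminin chain Lama5 averaged 126 ± 40.5 CPM, against 361 ± 26.8 CPM.

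In iCKO the summed levels of activated fibroblast and macrophage markers were higher, as those of the collagen classes were, and the sums of general fibroblast, mural, endothelial and cardiomyocyte markers were lower. Their part in the collagen values was not tested. Over all genes, 25.2% were called higher and 19.5% lower in iCKO. Of 10 markers of activated fibroblasts, 8 rose and 0 fell in iCKO, and their summed level was 1389 to 2116 CPM in iCKO, against 31.0 to 58.6 CPM in CTR2. Postn, a matrix protein of these cells, averaged 951 ± 244 CPM in iCKO, against 17.7 ± 4.41 CPM in CTR2, and Tnc 369.9 ± 94 CPM, against 1.95 ± 0.254 CPM. Of the 14 general fibroblast markers 3 were higher and 4 lower, near the shares over all genes, with a sum of 1464 to 1666 CPM in iCKO, against 2365 to 2941 CPM in CTR2. Mfap5 was among the higher ones (log2 fold change 3.13 ± 0.23, adjusted p = 7.5e-05). Scara5 was among the lower ones (log2 fold change -3.07 ± 0.28, adjusted p = 0.00013). The median log2 fold change of that list was 0.12. Macrophage markers were higher for 10 of 11 genes, with a sum of 1049 to 2140 CPM in iCKO, against 406 to 541 CPM in CTR2. Cardiomyocyte markers were lower for 7 of 10, with a sum of 51432 to 60615 CPM in iCKO, against 101734 to 113920 CPM in CTR2. Endothelial markers were lower for 5 of 12 and higher for 0, and mural markers higher for 4 and lower for 3 of 10.

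In mCKO with the block, where 7.32% of all genes were higher and 6.45% lower, the activated fibroblast list had 5 of 9 higher, with a sum of 62.5 to 161 CPM in mCKO, against 44.7 to 108 CPM in CTR1. Fibroblast markers were higher for 4 of 14, at 2801 to 4673 CPM in mCKO, against 2798 to 4104 CPM in CTR1. Macrophage markers were higher for 11 of 11, at 747 to 1333 CPM in mCKO, against 559 to 824 CPM in CTR1. Cardiomyocyte markers were lower for 6 of 10, endothelial markers higher for 1 of 12 and mural markers higher for 1 and lower for 1 of 10. Mesothelial markers were higher for 2 of 5 in mCKO and did not pass in iCKO. Schwann cell markers were lower for 1 of 5 tested in iCKO, and cartilage and tendon markers were higher for 2 of 3 tested in iCKO and lower for 1 of 2 tested in mCKO. The cartilage and tendon list, which bears on Col2a1, Col9a1 to Col9a3, Col10a1 and Col11a1, summed to 20.3 to 26.9 CPM in iCKO, against 11.0 to 14.7 CPM in CTR2, with Sox9 and Scx as its largest members, and 4 of its 6 genes were at 0 in at least 1 library. No marker was at 0 in all libraries.

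**Figure D5:**
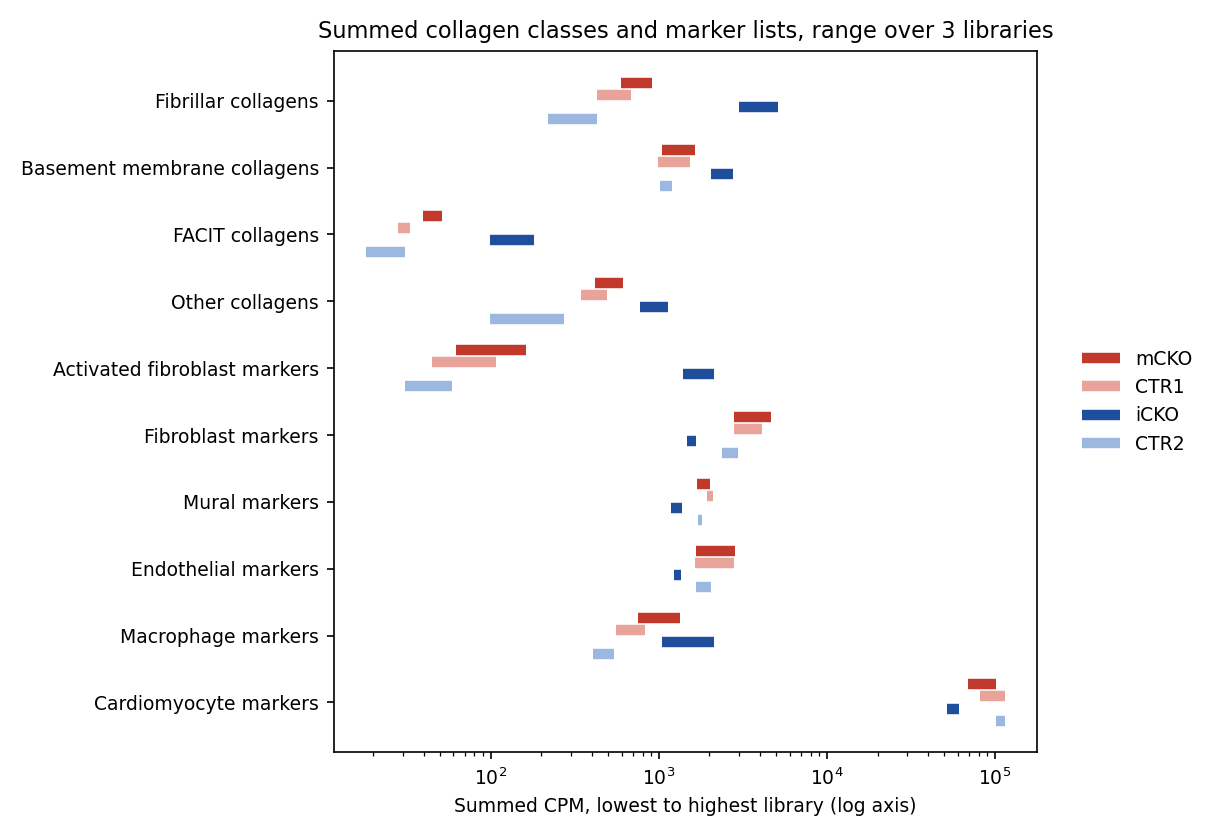
Summed level of each collagen class and of 6 marker lists, drawn as the range from the lowest to the highest of 3 libraries per group on a log axis of CPM, with mCKO, CTR1, iCKO and CTR2 from top to bottom in each row. The iCKO bars lie above those of CTR2 for all 4 collagen classes, activated fibroblast markers and macrophage markers, and below for the other 4 lists.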

How the data were processed

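Per the labels' protocols, left ventricular RNA was prepared with Trizol, and a TruSeq stranded mRNA kit, which selects poly(A) RNA, made the libraries. Per the submitters' processing notes, the tools were HISAT2 and DESeq, and the build was GRCm38. For versions, the counting tool, its annotation and its strand setting, nothing is given in the sources used. Deposited values are the authors' raw counts per gene, 1 table for mCKO with CTR1 and another for iCKO with CTR2, of which 16673 genes were in both. Without strand, reads of Col4a1 and Col4a2 or of other overlapping genes cannot be told apart. Overlaps with other genes covered at most 6.07% of a chain's exon bases.

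The fits used edgeR 4.0.16 quasi-likelihood (robust) in R 4.3.3, with filterByExpr (minimum count 10, total 15) and TMM of each table, and two-sided Benjamini-Hochberg p-values over all genes, called at 0.05. Fold changes carry a standard error after ±, and levels an SD. Levels are CPM scaled by TMM over all 12 libraries and the genes in both tables, and per kb they use GENCODE M21 exon lengths. A count of 0 allows up to 3 counts, which is 0.105 to 0.156 CPM and covers counting error only. DESeq2 1.42.0, limma 3.58.1 and other scalings were alternatives.

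Members and lists were chosen with earlier results of these data known. The rule for chains given library by library took the 4 of each class with the highest level per kb, any chain called in a comparison with or without the block, and their type IV and type VI partners. From each list, up to 3 called genes with the smallest adjusted p were eligible, and not all of them are printed. Same-numbered mCKO and CTR1 libraries deviated together (r above 0.1 for all 3 numbers), although numbers 1 and 2 correlated as strongly across as within, so what pairs is replicate 3. What a replicate number stands for is not labelled. In iCKO and CTR2 no such pairing appeared. No duplicate libraries were found. Fits were tested on simulated counts. The blocked difference of effects recovered fewer changed genes than the limit first set, which was then loosened, so chains that did not pass in that contrast were tested with limited power. Protein sequence features were not analysed here.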

Additional observations from a re-analysis of the deposited data

Results flagged for a closer look

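The effect of the knockout differed between the 2 models for 15 of 35 chains tested. The test was the contrast of the mCKO effect minus the iCKO effect (edgeR, adjusted p under 0.05 over all genes). Of the chains, 13 were lower and 2 higher, where 9.88% and 11.0% of all 13871 genes were. The difference on the log2 scale was -4.17 for Col12a1, -3.55 for Col3a1, -3.50 for Col8a1 and -3.35 for Col1a1. It was -2.89 for Col5a2, -2.88 for Col5a1, -2.74 for Col1a2 and -2.54 for Col6a3. Smaller differences were -1.91 for Col16a1, -1.72 for Col6a2, -1.21 for Col6a1, -0.98 for Col4a2 and -0.96 for Col5a3. Positive differences were 2.92 for Col6a6, which fell in iCKO, and 1.26 for Col4a4, which fell in iCKO with an adjusted p of 0.048. In this contrast the call of Col4a4 held in 9 of 20 alternative settings and that of Col5a3 in 10 of 20.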

How the results depend on the processing

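No chain was called in mCKO against CTR1 under any single alternative scaling, tool, filter or left-out library, whereas 13 were higher with the replicate block, 16 with library sizes and the block, and 9 without both replicate 3 libraries. In iCKO against CTR2 the count of chains lower, 4, was 5 with DESeq2, limma-voom and RLE size factors, 2 with library sizes only, 2 without replicate 2 of both groups, and 2 to 4 with single libraries left out. The block there gave 18 higher and 4 lower, the pairing check showed no pairing (r of -0.161 to 0.058), and the block changed no other call among the chains of that experiment. In the difference of effects the count higher, 2, was 3 with DESeq2 and with the replicate block, 1 with library sizes only, 1 without replicate 2 of both groups and 1 to 3 with single libraries left out. The summed basement membrane level in iCKO over CTR2, 1.14 on the log2 scale, was 1.37 with library sizes only. The block with library sizes, and the setting without replicate 2 of both groups, were chosen after seeing the data. The cause of these shifts was not tested.

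Some signs turned. In mCKO, Col6a6 was 0.03 with library sizes only, 0.02 with library sizes and the block, 0.03 without both replicate 3 libraries, and -0.29 to 0.19 with single libraries left out. Col7a1 was -0.10 with limma-voom and -0.45 to 0.60 with single libraries left out. Col18a1 and Col8a1, at 0.42 and 0.30 with all libraries, turned too. With single libraries left out, Col18a1 lay between -0.02 and 0.99, Col20a1 between -0.09 and 0.19, Col4a1 between -0.12 and 0.52, Col4a2 between -0.09 and 0.24, Col4a5 between -0.37 and 0.05, Col5a3 between -0.01 and 0.24, and Col8a1 between -0.25 and 0.81. Without replicate 2 of both groups, Col4a5 was -0.10 in iCKO (up to 0.35 with single libraries left out) and Col14a1, at -0.49 with all libraries, 0.16 in the difference (down to -0.80). For the ratios, the value followed was the mean log2 ratio of the knockout minus that of its control. For Col5a1 to Col5a2 this difference was 0.14 in mCKO and -0.20 in iCKO without replicate 2 (0.27 in iCKO without replicate 3). For Col6a1 to Col6a2 in mCKO the difference was -0.02 without replicate 1. Depth limits the chains under the filter, whose group totals were at most 59 counts.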
